A study of Mus musculus with 12 samples.

Results

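Neutrophil granule genes are 10 transcripts known from granulocytes: S100a8, S100a9, Ngp, Camp, Ltf, Lcn2, Elane, Mpo, Retnlg and Chil3. They were selected by gene name among the 41709 genes counted in each library, and all 10 were found. RNA-seq was performed with MHCII+ bone marrow-derived dendritic cells (BMDCs) after 10 days of culture with GM-CSF. MHCII+ cells were taken from the cultures with magnetic beads before lysis, so the values describe the isolated cells and not the granulocyte content of the whole culture. The 4 groups were unstimulated CD18fl/fl, unstimulated CD18CD11c cKO, and both genotypes after 24 h with LPS at 100 ng/mL, each with 3 libraries. All groups were homozygous for a floxed exon 3 of Itgb2, the gene of the β2 integrin chain CD18. CD18CD11c cKO cells carried Cre under the CD11c promoter in addition, while CD18fl/fl cells lacked Cre. The mice were on a C57BL/6 background, their age was not given in the sources used here, and no group carried Cre without the floxed allele. The labels do not state whether the libraries of a group came from separate mice, so p-values measure the spread between these libraries, which may be technical.

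Neutrophils store antimicrobial proteins in granules that are filled in a fixed order while the cells mature in the bone marrow. Azurophil granules are filled first and contain myeloperoxidase and serine proteases, and specific granules follow with lactoferrin, cathelicidin and lipocalin. The transcripts of these proteins are abundant in granulocyte precursors and decline as the cells mature, whereas the S100 proteins are kept in the cytosol and their transcripts persist. GM-CSF cultures of bone marrow give rise to granulocytes as well as to dendritic cells and macrophages. Some of these genes are also used outside granulocytes, since Lcn2 is a well-known target of inflammatory signaling in many cell types and Chil3 is produced by monocytes and macrophages.

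The libraries contained between 29689149 and 34037178 gene reads, so that 3 reads, taken as the floor, equal 0.0752 to 0.135 CPM (reads scaled to a common library total after TMM normalization). PCR without molecular identifiers was used, so that floors and intervals cover counting error only. Of the listed dendritic cell genes, those of MHC class II and its invariant chain were the most abundant. Means were 8437 CPM for H2-Ab1 and 6154 CPM for H2-Aa, which encode MHC class II chains, and 3878 CPM for Cd74, the invariant chain. The cells had been isolated by MHCII, and other listed genes were lower, with Ccr7 at 1574 CPM. Group means were 8.00 to 21.4 CPM for Flt3 and 22.9 to 32.9 CPM for Zbtb46, which were named after their values were seen. Itgb2 ranged from 379 to 420 CPM in unstimulated CD18fl/fl and from 120 to 189 CPM in unstimulated cKO BMDCs, a log2 fold change of -1.26 (SE 0.23) that passed edgeR's quasi-likelihood test only with the replicate number as a block (adjusted p = 0.0887 without and 0.00392 with it). In LPS-treated BMDCs it ranged from 167 to 266 CPM in CD18fl/fl and from 89.7 to 119 CPM in cKO cells (log2 fold change -0.93, SE 0.29, adjusted p = 0.428 without and 0.0201 with the block). The third replicate of each group stood apart from replicates 1 and 2, and values are given for each replicate where this matters.

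The granule genes are represented by the bases that precede their transcription starts, which are shown for the S100 pair and for the specific granule genes Ltf and Ngp. The read numbers of Ltf and Ngp moved together across most libraries, whereas those of S100a8 and S100a9 did not keep a fixed proportion. RefSeq promoter windows of 300 bases (GRCm38.p6) were available for all 10 genes, and each was located by an exact match near its gene in GRCm39. The sequences end before the gene start used in the count files and are written 5′ to 3′ along the gene. Capitals mark the core motifs of C/EBP (TTNNGNAA) and PU.1 (GAGGAA), transcription factors of granulocyte development, on either strand. The stretches shown are parts of the 300-base windows. Matches outside them, such as the C/EBP cores of S100a9, are counted below but not shown. The S100a8 sequence lies at chr3:90576165-90576284 on the plus strand, and that of S100a9 at chr3:90603029-90603148 on the minus strand. The Ltf sequence lies at chr9:110848219-110848338 on the plus strand, and that of Ngp at chr9:110248695-110248814 on the plus strand.
S100a8: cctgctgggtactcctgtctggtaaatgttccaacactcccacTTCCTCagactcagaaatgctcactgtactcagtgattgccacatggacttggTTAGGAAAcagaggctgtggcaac
S100a9: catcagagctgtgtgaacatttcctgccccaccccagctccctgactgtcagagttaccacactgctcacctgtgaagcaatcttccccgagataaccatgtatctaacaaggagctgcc
Ltf: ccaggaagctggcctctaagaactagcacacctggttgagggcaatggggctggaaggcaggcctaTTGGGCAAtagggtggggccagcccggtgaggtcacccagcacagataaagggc
Ngp: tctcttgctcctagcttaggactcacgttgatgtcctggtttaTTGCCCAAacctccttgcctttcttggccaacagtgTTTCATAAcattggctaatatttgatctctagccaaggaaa
The C/EBP core occurred in the 300-base windows of 7 of the 10 genes (S100a8, S100a9, Ltf, Ngp, Lcn2, Retnlg and Chil3) and in 40.7% of 32544 windows of all genes. The PU.1 core occurred in 5 of the 10 (S100a8, Mpo, Elane, Ltf and Lcn2) and in 28.1% of all windows. Searched on both strands, a looser and a stricter form of the κB motif, which overlap each other in part, were found in the window of 0 of the 10 genes, and in 5.56% and 1.61% of all windows, respectively. For Lcn2, the bases before the RefSeq start lie within the gene span used for counting. The sequence before that span was not searched, so the counts for Lcn2 do not describe it. A match describes the letters of a window only, and no binding was measured.

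A single library held 49.1% of the 126983 reads of these genes in the 12 libraries. In unstimulated CD18fl/fl BMDCs, the 10 genes took 0.209% of all gene reads in replicate 1 (exact 95% binomial interval 0.207% to 0.210%), 0.0207% in replicate 2 and 0.00448% in replicate 3. In unstimulated cKO BMDCs, the shares were 0.0305%, 0.0273% and 0.00248%. After LPS, they were 0.0284%, 0.0138% and 0.0315% in CD18fl/fl and 0.0223%, 0.0156% and 0.00765% in cKO BMDCs. Replicate 1 of the unstimulated CD18fl/fl group thus stood above each of the other 11 libraries, while replicates 2 and 3 of this group lay within the range of the others. This library had the highest CPM of the 12 for 9 of the 10 genes, all but Lcn2, whereas it was the highest for 4.94% of the 13752 genes that passed the filter on low counts in 12 libraries. In bulk RNA, fewer cells of a type and less RNA of these genes per cell cannot be told apart.

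**Figure D1:**
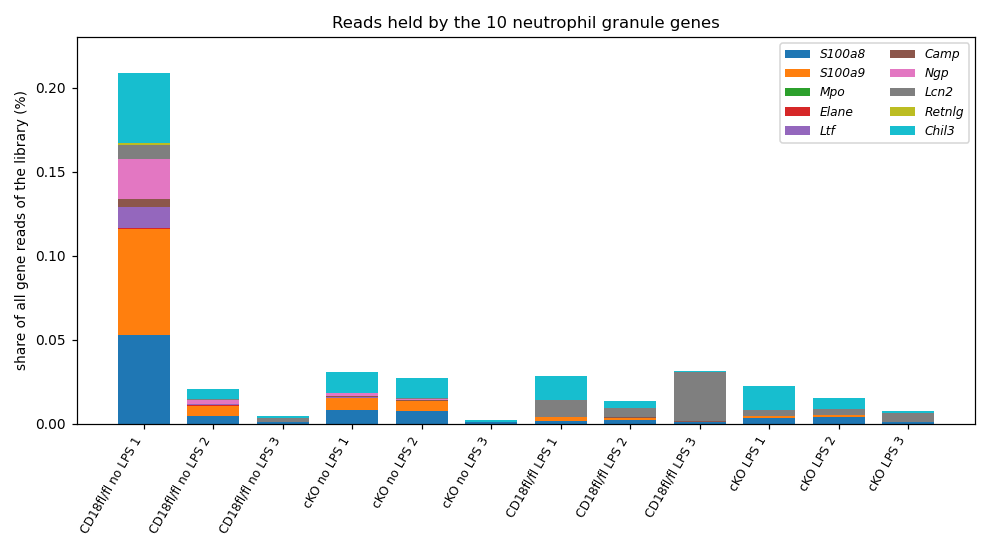
Share of all gene reads of a library (%, linear axis from 0) taken by the 10 granule genes, as stacked bars with 1 bar for each of the 12 libraries and the replicate number in the label. Replicate 1 of unstimulated CD18fl/fl reached 0.209%, while the other 11 libraries lay between 0.00248% and 0.0315%, and Lcn2 made up 92.9% of the members' reads in LPS-treated CD18fl/fl replicate 3.

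The genes differed widely in level when reads were scaled per length (TPM, scaled for transcript length and to a common library total). In unstimulated CD18fl/fl BMDCs, the median TPM was 213 for S100a9, 176 for S100a8, 69.7 for Chil3, 30.8 for Ngp and 28.0 for Lcn2. It was 5.26 for Camp, 4.95 for Ltf, 4.19 for Retnlg, 1.06 for Elane and 0.0552 for Mpo. Because of the spread between replicates, the ranges of neighbors in this order overlapped throughout. In LPS-treated cKO BMDCs, S100a8 (median 116 TPM), Chil3 (72.9), Lcn2 (52.3) and S100a9 (29.4) led, followed by Camp (2.50) and Ngp (0.487), and the median of the other 4 genes was 0. Here the 3 values of Lcn2, from 51.3 to 61.5 TPM, lay above those of S100a9, from 0.374 to 30.6 TPM, while the other neighbors with reads overlapped.

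S100a8 and S100a9 encode the subunits of calprotectin, a calcium- and zinc-binding complex of the neutrophil cytosol. Their genes are neighbors on chromosome 3 (GRCm39), S100a8 at chr3:90576285-90577342 on the plus strand and S100a9 at chr3:90599939-90603028 on the minus strand. S100a8 was measured at 439, 37.4 and 8.23 CPM in replicates 1, 2 and 3 of unstimulated CD18fl/fl and at 86.4, 81.7 and 7.80 CPM in unstimulated cKO BMDCs. With LPS, it was at 17.7, 23.3 and 10.1 CPM in CD18fl/fl and at 42.7, 53.0 and 11.9 CPM in cKO BMDCs. The groups overlapped in every comparison, and replicate 3 was the lowest of its group in each of the 4 groups. S100a9 was measured at 523, 48.1 and 0.374 CPM in unstimulated CD18fl/fl and at 75.2, 58.8 and 0.954 CPM in unstimulated cKO BMDCs. With LPS, it was at 20.4, 17.3 and 0.0762 CPM in CD18fl/fl and at 11.5, 12.6 and 0.129 CPM in cKO BMDCs. The S100a9 value of LPS-treated CD18fl/fl replicate 3 rested on 3 reads and that of cKO replicate 3 on 4 reads.

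S100a8 and S100a9 did not keep a fixed proportion. In replicates 1 and 2 of the unstimulated groups, there were between 0.776 and 1.39 S100a8 reads for each S100a9 read, and this was 0.868 and 1.35 in LPS-treated CD18fl/fl BMDCs. In LPS-treated cKO BMDCs, the proportion was 3.72 and 4.20. In replicate 3 it was 22 in unstimulated CD18fl/fl, 8.18 in unstimulated cKO and 92.0 in LPS-treated cKO BMDCs. S100a8 thus stayed between 270 and 396 reads in all 4 libraries numbered 3, while S100a9 was at 3 to 33 reads. All S100a8 and S100a9 reads mapped to a single gene position, and 84.6% and 67.9% of them crossed an exon junction.

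**Figure D2:**
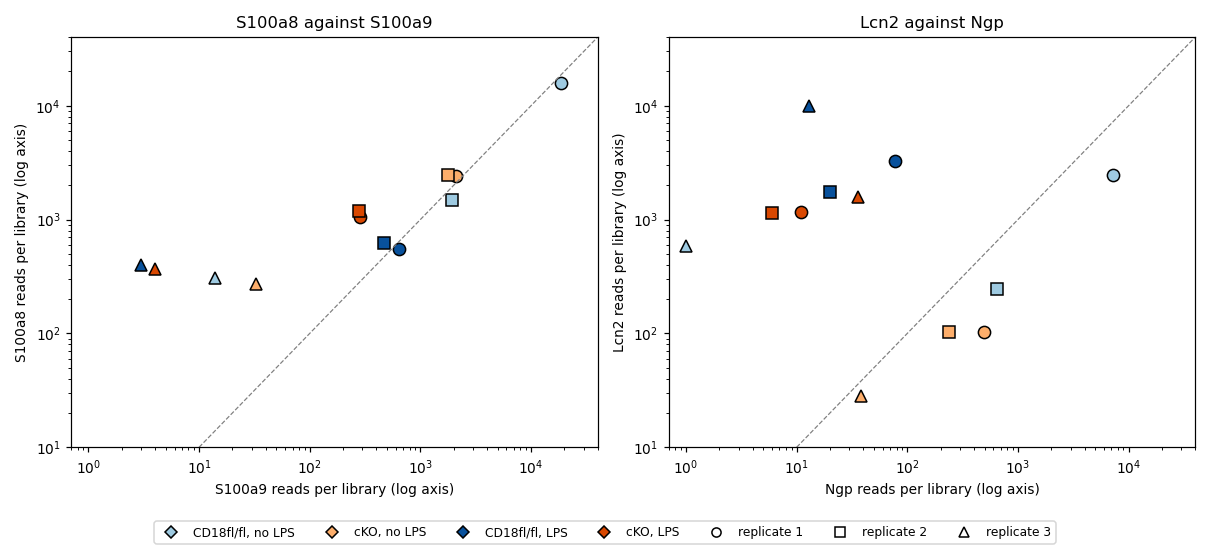
Reads per library (both axes logarithmic) of S100a8 against S100a9 on the left and of Lcn2 against Ngp on the right. Colors mark the 4 groups, symbols the replicate number, and the dashed line equal read numbers. On the left, 6 libraries lie near the line and replicate 3 of each group far above it, and on the right every LPS-treated library lies above the line, as does unstimulated CD18fl/fl replicate 3, which had 1 Ngp read.

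Mpo and Elane, the azurophil granule genes among the 10, were close to absent. Mpo encodes myeloperoxidase, which makes hypochlorous acid, and Elane encodes neutrophil elastase. Mpo (chr11:87684407-87695239) had 25, 3 and 0 reads in unstimulated CD18fl/fl and 10, 0 and 0 reads in unstimulated cKO BMDCs. With LPS, it had 0, 0 and 4 reads in CD18fl/fl and 0 reads in the 3 cKO libraries. Elane (chr10:79722081-79724049) had 36, 18 and 0 reads in unstimulated CD18fl/fl and 0, 3 and 3 reads in unstimulated cKO BMDCs. With LPS, Elane had 0, 0 and 7 reads in CD18fl/fl and 0 reads in the 3 cKO libraries. Neither gene passed the filter on low counts in any comparison of 3 libraries against 3, and both were at or under 3 reads in 9 of 12 libraries.

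Ltf, Ngp and Camp encode specific granule proteins and lie near each other on chromosome 9. Ltf (chr9:110848339-110871835) encodes lactoferrin, which binds iron. It was measured at 3823, 252 and 7 reads in unstimulated CD18fl/fl and at 158, 126 and 11 reads in unstimulated cKO BMDCs. With LPS, it had 13, 7 and 5 reads in CD18fl/fl and 0, 20 and 0 reads in cKO BMDCs. Ltf was thus above 100 reads in replicates 1 and 2 of both unstimulated groups and at 20 reads or fewer in every LPS-treated library. Ngp (chr9:110248815-110252080) encodes neutrophilic granule protein, a cystatin-like protein. It had 7270, 651 and 1 reads in unstimulated CD18fl/fl and 494, 238 and 38 reads in unstimulated cKO BMDCs. With LPS, Ngp had 77, 20 and 13 reads in CD18fl/fl and 11, 6 and 36 reads in cKO BMDCs. As for Ltf, the high values were those of replicates 1 and 2 without LPS, and replicate 3 had at most 38 reads in any group.

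Camp (chr9:109676447-109678685) encodes the cathelicidin antimicrobial peptide. It had 1347, 69 and 0 reads in unstimulated CD18fl/fl and 210, 105 and 12 reads in unstimulated cKO BMDCs. With LPS, it had 38, 30 and 49 reads in CD18fl/fl and 35, 45 and 16 reads in cKO BMDCs. Its high values were again those of replicates 1 and 2 without LPS, but in CD18fl/fl replicate 3 Camp had 0 reads without and 49 reads with LPS. Among libraries with more than 3 reads of both genes, there were between 1.89 and 3.46 Ngp reads for each Ltf read in the 5 unstimulated libraries, and between 2.27 and 9.44 Ngp reads for each Camp read. With LPS, the proportion of Ngp to Camp was between 0.133 and 2.25.

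Lcn2 encodes lipocalin 2, which withholds iron from bacteria by binding their siderophores, and is stored in specific granules. Of the 10 genes, it alone had its highest value in an LPS-treated library. Lcn2 (chr2:32274645-32278264) was measured at 68.8, 6.14 and 15.7 CPM in unstimulated CD18fl/fl and at 3.67, 3.47 and 0.809 CPM in unstimulated cKO BMDCs. With LPS, it was at 105, 65.6 and 253 CPM in CD18fl/fl and at 47.5, 51.1 and 51.1 CPM in cKO BMDCs. The genotypes did not overlap in either state, with all cKO libraries below all CD18fl/fl libraries. LPS-treated cKO libraries lay above unstimulated ones, whereas in CD18fl/fl the unstimulated replicate 1 exceeded the LPS-treated replicate 2. The library with the highest Lcn2 level was LPS-treated CD18fl/fl replicate 3, in which S100a9 was at its lowest. For each Ngp read there were between 0.209 and 0.737 Lcn2 reads in the 5 unstimulated libraries with more than 3 reads of both genes, and between 42.5 and 765 in the 6 LPS-treated libraries.

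Retnlg and Chil3 encode secreted proteins. Retnlg (chr16:48692984-48694859), a resistin-like protein of granulocytes, had 242, 43 and 0 reads in unstimulated CD18fl/fl and 23, 22 and 0 reads in unstimulated cKO BMDCs. With LPS, it had 0, 5 and 0 reads in CD18fl/fl and 0 reads in the 3 cKO libraries. In cKO BMDCs, the unstimulated mean of 0.517 CPM was 4.39-fold the floor of 3 reads in each LPS-treated library. This mean came from replicates 1 and 2, since replicate 3 had 0 reads in both states. Retnlg did not pass the filter on low counts in this comparison. Chil3 (chr3:106054870-106074880), a chitinase-like lectin also known as Ym1, was at 346, 46.6 and 10.98 CPM in unstimulated CD18fl/fl and at 128, 128 and 11.8 CPM in unstimulated cKO BMDCs. With LPS, Chil3 was at 145, 48.1 and 7.34 CPM in CD18fl/fl and at 178, 88.8 and 16.7 CPM in cKO BMDCs. Replicate 3 was the lowest in each of the 4 groups, and the values of all groups overlapped. Chil4, a near-identical paralog, had 6 reads in the 12 libraries together, and 99.4% of the Chil3 reads mapped uniquely.

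**Figure D3:**
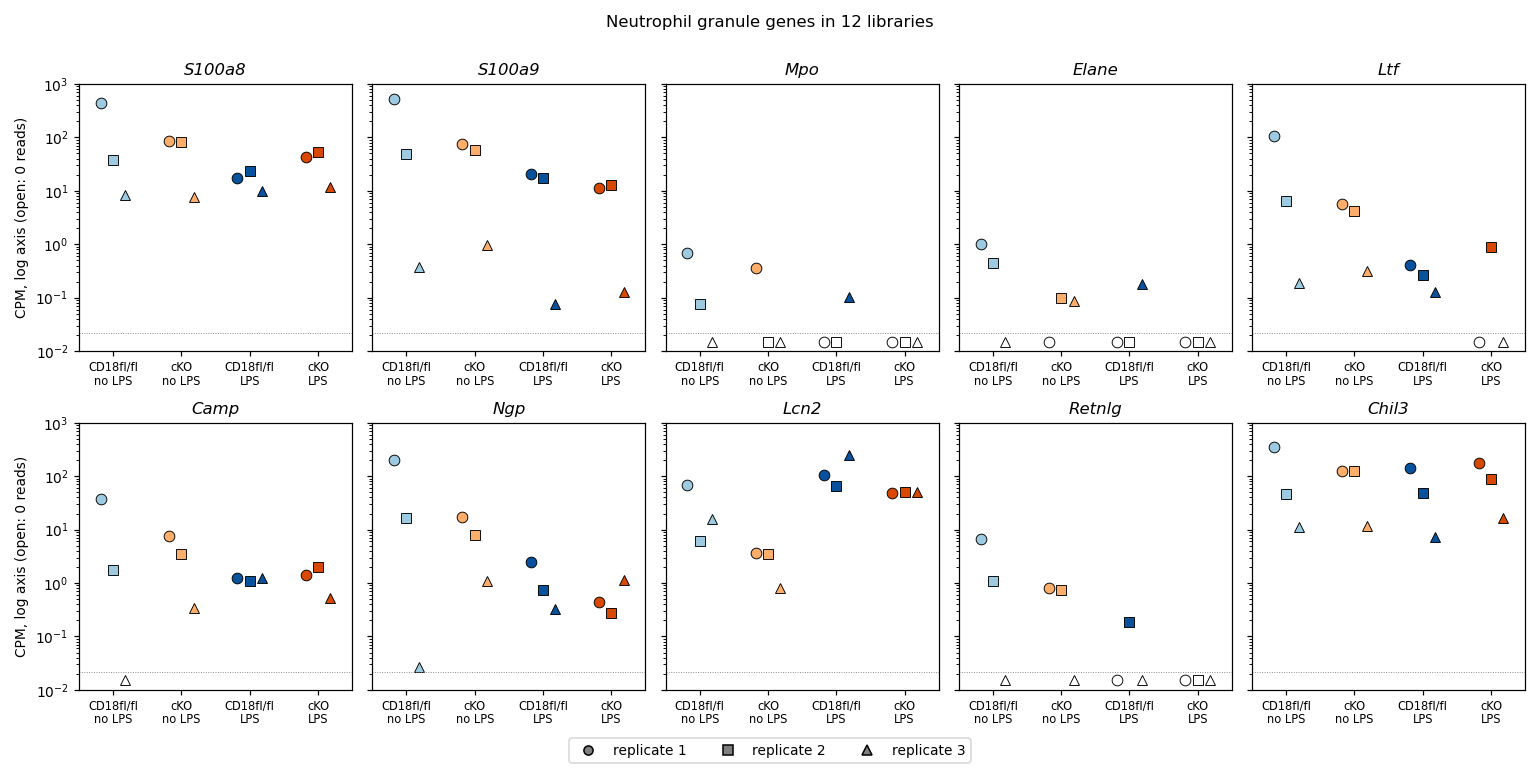
CPM (logarithmic axis) of the 10 granule genes in the 12 libraries, with 1 panel for each gene, the 4 groups on the horizontal axis, and circles, squares and triangles for replicates 1, 2 and 3. Open symbols at the bottom are libraries with 0 reads. Replicate 1 of unstimulated CD18fl/fl is at the top in 9 panels, and only Lcn2 shows its highest values in the LPS-treated groups.

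To assess whether the loss of CD18 altered these transcripts, the genotypes were compared within each state. In unstimulated BMDCs, 8 of the 10 genes passed the filter, and 0 of 8 passed the threshold of edgeR's test (adjusted p under 0.05), as did 0% of the 12876 genes tested. At an unadjusted p under 0.05 there was 1 of 8, Lcn2, and 2159 of all genes. DESeq2 called 1 of the 7 genes to which it gave an adjusted p, also Lcn2, beside 9.52% of all genes with one. The fitted log2 fold changes of the 8 genes that passed the filter were all negative, with a median of -2.17 beside -0.0479 for all genes tested. Lcn2 had the largest, at -3.47 (SE 1.01, adjusted p = 0.182), and it fell in cKO BMDCs once the replicate block was included (-3.08, SE 0.67, adjusted p = 0.0199), which called 1 of 8 genes, beside 20.2% of all genes (8.16% lower). The groups did not overlap for Lcn2 alone, 1 of 8 genes, beside 24.3% of all genes.

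For 6 of the 7 other genes in unstimulated BMDCs, the fold change was no longer negative without CD18fl/fl replicate 1. Within the libraries numbered 1, all 8 genes were lower in cKO BMDCs, while 4 of 8 were lower in those numbered 2 and 2 of 8 in those numbered 3. For S100a8, the differences in log2 CPM (cKO minus CD18fl/fl) were -2.34, 1.13 and -0.08, and for Ngp they were -3.52, -1.03 and 3.70. Without CD18fl/fl replicate 1, the fitted log2 fold change became 1.41 (SE 1.10) for S100a8, 0.93 (SE 1.97) for S100a9, 2.15 (SE 1.90) for Camp and 1.68 (SE 1.10) for Chil3. Those of Ltf (0.09, SE 1.52) and Ngp (0.15, SE 1.81) then had an error many times their size, and Retnlg was at -0.03 (SE 2.18), while Lcn2 stayed negative at -1.97. In the 3 same-numbered pairs, Lcn2 was lower in cKO BMDCs by differences of -4.21, -0.81 and -4.18.

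In LPS-treated BMDCs, 6 genes passed the filter, without Ltf and Retnlg, and 0 of 6 were called between the genotypes, beside 0% of 12441 genes. At an unadjusted p under 0.05 there was again 1 of 6, Lcn2, and 1212 of all genes. DESeq2 called 0 of the 4 genes with an adjusted p, beside 3.68% of all genes with one. Lcn2 had a log2 fold change of -1.53 (SE 0.49, adjusted p = 0.438, and 0.0541 with the block). All 3 same-numbered pairs were lower in cKO BMDCs (-1.14, -0.36 and -2.30), and the groups did not overlap for Lcn2, 1 of 6 genes beside 18% of all genes. S100a8 had a positive log2 fold change of 1.04 (SE 0.56, adjusted p = 0.605), with differences of 1.27, 1.18 and 0.24 in the pairs. With the block, its adjusted p was 0.0519 and that of Chil3, at 0.76 (SE 0.20), was 0.0575, so that neither passed and 0 of 6 genes were called, beside 10.1% of all genes. S100a9 (-0.67, SE 1.66), Ngp (-0.91, SE 0.98) and Camp (0.10, SE 0.66) had fold changes smaller than their error or close to it.

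**Figure D4:**
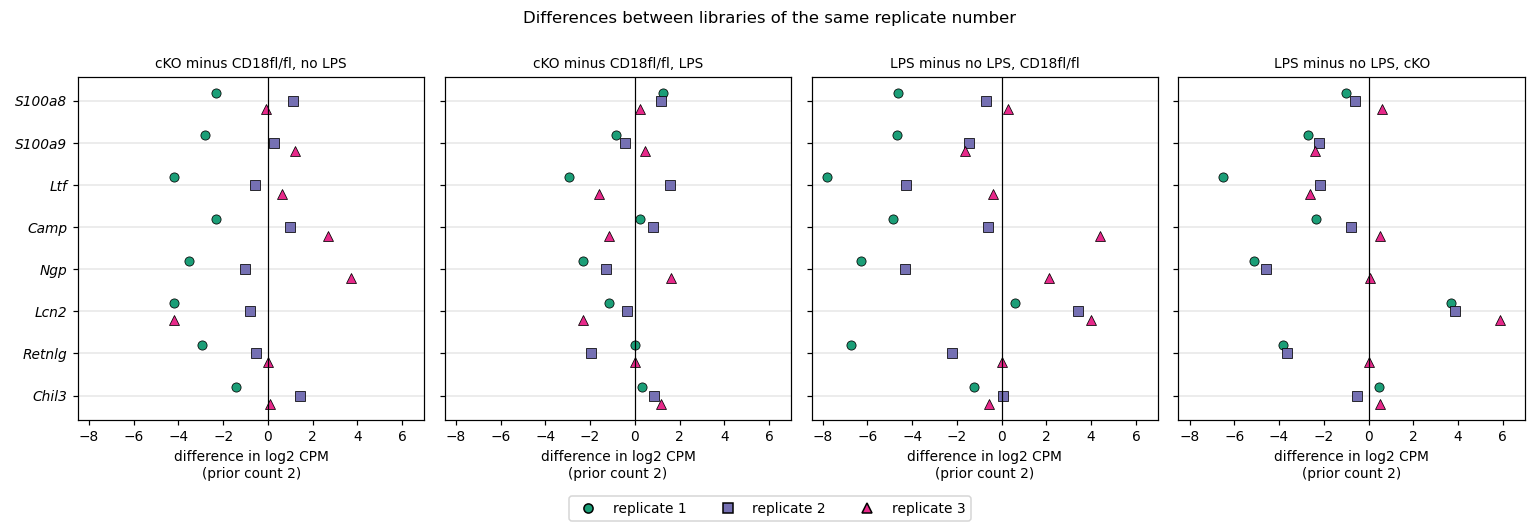
Difference in log2 CPM (prior count 2) between libraries of the same replicate number for the 8 granule genes that passed the filter on 12 libraries, with the genotype comparisons in the left panels and the LPS comparisons in the right panels. Symbols and colors mark replicates 1, 2 and 3, and the vertical line marks 0. Of the 8 genes, Lcn2 alone lies on 1 side of the line in all 4 panels for all 3 pairs.

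To determine the effect of LPS, treated and unstimulated libraries were compared within each genotype. In CD18fl/fl BMDCs, 7 genes passed the filter, without Retnlg, and 0 of 7 were called by edgeR, beside 3.89% of 12744 genes. At an unadjusted p under 0.05 there were 4 of 7, and 3034 of all genes. DESeq2 called 4 of 7, namely S100a8, Ltf and Ngp as lower and Lcn2 as higher, beside 16.3% of all genes with an adjusted p. The fitted log2 fold changes were -7.13 (SE 2.08, adjusted p = 0.106) for Ltf, -5.94 (SE 2.21, adjusted p = 0.167) for Ngp, -3.25 (SE 1.31, adjusted p = 0.195) for S100a8 and 2.23 (SE 0.92, adjusted p = 0.203) for Lcn2. With the replicate block, Ltf fell (-5.66, SE 1.33, adjusted p = 0.0441), and 1 of 7 genes was called, beside 12.8% of all genes (6.43% lower). The groups did not overlap for 0 of 7 genes, beside 29.4% of all genes. Without unstimulated CD18fl/fl replicate 1, the edgeR fold changes of Camp and Chil3 became positive (0.46 and 1.22). Those of S100a8, S100a9, Ngp and Ltf were then -0.42, -0.95, -2.79 and -3.59, and that of Lcn2 was 3.70. The 7 genes had a median of -3.44, beside -0.015 for all genes tested.

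In cKO BMDCs, 7 genes passed the filter, and 1 of 7, Lcn2, was called by edgeR, beside 3.99% of 12687 genes. Lcn2 rose from 2.65 ± 1.60 to 49.9 ± 2.11 CPM (SD, n = 3), a log2 fold change of 4.20 (SE 0.57, adjusted p = 0.0197), when 2.23% of all genes were called higher. Its same-numbered differences were 3.67, 3.86 and 5.87, and Lcn2 was the 1 gene of 7 whose groups did not overlap, beside 28.2% of all genes. With the block, S100a9 fell in addition (-2.58, SE 0.23, adjusted p = 0.00179, against -2.55, SE 1.57, adjusted p = 0.402 without it), so that 2 of 7 genes were called, beside 20.2% of all genes. The S100a9 differences of the pairs, at -2.70, -2.22 and -2.40, were close together, although the level of S100a9 in replicate 3 was far below that in replicates 1 and 2. In replicate 3, S100a9 had 33 reads without and 4 reads with LPS, so the third difference depends on the prior count of 2. S100a8 differed by -1.02, -0.62 and 0.61 in the same pairs, with a fold change of -0.78 (SE 0.84, adjusted p = 0.657). Ngp had a log2 fold change of -3.80 (SE 1.05, adjusted p = 0.0930) and was lower in the pairs numbered 1 and 2 by -5.12 and -4.59, with a difference of 0.08 in the third pair. DESeq2 called 2 of 7 genes, Lcn2 as higher and Ngp as lower, beside 13.3% of all genes with an adjusted p. The Lcn2 call was lost without either of the replicates numbered 1 or 2 of either cKO group (adjusted p from 0.0637 to 0.0986, with log2 fold changes from 4.21 to 4.48).

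In the LPS comparisons, more of the genes passed the threshold when replicate 3 was set aside. In replicates 1 and 2 of CD18fl/fl BMDCs alone, 7 of 9 genes fell with LPS, beside 24.3% of 12924 genes called lower. These were S100a8 (-3.54, SE 0.76, adjusted p = 0.00261), S100a9 (-3.92, SE 0.76, adjusted p = 0.00126), Camp (-4.06, SE 0.98, adjusted p = 0.00503), Ngp (-6.05, SE 0.97, adjusted p = 0.000342), Ltf (-7.34, SE 1.15, adjusted p = 0.000307), Elane (36 and 18 against 0 and 0 reads) and Retnlg (242 and 43 against 0 and 5 reads). Chil3 (-1.02, SE 0.67, adjusted p = 0.229) and Lcn2 (1.19, SE 0.68, adjusted p = 0.173) were the other 2. In replicates 1 and 2 of cKO BMDCs alone, 4 of 8 genes were called, beside 15.9% of 12872 genes. Lcn2 rose (3.68, SE 0.24, adjusted p = 0.00189), while S100a8 (-0.92, SE 0.21, adjusted p = 0.0336), S100a9 (-2.58, SE 0.24, adjusted p = 0.00330) and Ngp (-5.23, SE 0.60, adjusted p = 0.00520) fell. With LPS, Elane and Retnlg stayed under the filter's minimum count of 10 in these CD18fl/fl libraries, as did Ltf in replicate 2 (7 reads). These genes passed the filter through the unstimulated libraries, so that it favored a fall, and Elane and Retnlg could only be called lower. Ngp likewise passed through the unstimulated libraries in cKO BMDCs, with 11 and 6 reads after LPS. Both sets of calls rest on 2 libraries in a group, and in CD18fl/fl 1 of the 2 unstimulated libraries is replicate 1.

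The LPS effect was not shown to differ between the genotypes for any of the genes. In the interaction test, 0 of 8 genes and 0% of 13752 genes were called by edgeR without and with the block, and DESeq2 called 0 of 8, beside 0.00733% of all genes with an adjusted p. At an unadjusted p under 0.05 there were 0 of 8, and 97 of all genes. The interaction of Lcn2, the LPS effect in cKO minus that in CD18fl/fl BMDCs, was 2.02 on the log2 scale (SE 1.13), and was 0.44 when unstimulated CD18fl/fl replicate 1 was left out. The comparisons share libraries, so that their values are not independent of each other.

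Other granule genes, listed by hand, had their highest levels in various libraries. Of 9 further azurophil granule genes above the floor, 0 had their highest CPM in unstimulated CD18fl/fl replicate 1, and this applied to 5 of 16 further specific and tertiary granule genes. The most abundant azurophil-listed genes were Lyz2 (lysozyme, mean 19360 CPM), Cd63 (1972 CPM), Srgn (serglycin, 1693 CPM) and Calr (calreticulin, 1417 CPM), which macrophages and dendritic cells use as well. Lyz2 was at 30290, 31100 and 6931 CPM in unstimulated CD18fl/fl and at 24510, 61310 and 14320 CPM in unstimulated cKO BMDCs. Among the 16 specific and tertiary genes, Anxa1 (annexin A1, 1331 CPM), Cybb (a subunit of the phagocyte oxidase, 503 CPM), Slpi (a protease inhibitor, 326 CPM) and Adam8 (270 CPM) led. Slpi was at 825 CPM in replicate 3 of unstimulated CD18fl/fl and at 23.4 and 21.4 CPM in replicates 1 and 2, so that it was highest in the library of this group in which S100a9 was lowest.

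In the LPS comparisons, the specific and tertiary list had 1 gene called higher and 1 lower of 14 tested in CD18fl/fl BMDCs, and 1 higher and 2 lower of 13 in cKO BMDCs, beside 3.89% and 3.99% of all genes called. With the block, 3 were higher and 2 lower in CD18fl/fl and 2 higher and 2 lower in cKO BMDCs, beside 12.8% and 20.2% of all genes. The genes called without the block were named after their values were seen. Orm1, an acute-phase glycoprotein, rose in both genotypes (log2 fold change 5.41, adjusted p = 0.0248 in CD18fl/fl, and 5.23, adjusted p = 0.0217 in cKO BMDCs). Mmp8, the neutrophil collagenase, fell in both (-2.44, adjusted p = 0.0487, and -1.98, adjusted p = 0.0473). Pglyrp1, a peptidoglycan recognition protein of granules, fell in cKO BMDCs (-2.37, adjusted p = 0.0450) and had a log2 fold change of -4.65 (adjusted p = 0.0550) in CD18fl/fl BMDCs, where it fell with the block (-4.17, SE 0.54, adjusted p = 0.00922). The azurophil list had 0 of 8 genes called by edgeR in each genotype, with 1 higher (Srgn) and 1 lower (Lyz2) under the block in both, beside the same 12.8% and 20.2% of all genes. The medians of the specific and tertiary list were 0.47 in CD18fl/fl and 0.39 in cKO BMDCs, beside -0.015 and -0.0138 for all genes tested, and with the block the first turned to -0.28 and the second was 0.58.

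Genes of the neutrophil surface shared the high library in part. Of 14 such genes above the floor, 6 had their highest CPM in unstimulated CD18fl/fl replicate 1, as did 3 of 9 eosinophil genes, and 0 of 14 dendritic cell, 0 of 15 macrophage, 0 of 9 basophil and mast cell and 0 of 11 lymphoid and erythroid genes. Ly6g, which defines mouse neutrophils, had 192, 11 and 0 reads in unstimulated CD18fl/fl, 6, 0 and 0 reads in unstimulated cKO, 2, 2 and 0 reads in LPS-treated CD18fl/fl and 0, 1 and 20 reads in LPS-treated cKO BMDCs. Cxcr2, the chemokine receptor of mature neutrophils, had 193, 59 and 3 reads in unstimulated CD18fl/fl, 17, 15 and 11 reads in unstimulated cKO BMDCs, and 0 or 1 read in every LPS-treated library. Ly6g and Cxcr2 were thus highest in the same library as the granule genes. The G-CSF receptor gene Csf3r, in contrast, was at 11.01, 13.9 and 1.92 CPM in unstimulated CD18fl/fl and at 1.49, 3.80 and 0.260 CPM in unstimulated cKO BMDCs. It fell in cKO BMDCs with the block in both states (-2.44, adjusted p = 0.00472, and -2.42, adjusted p = 0.0271), but not without it (adjusted p = 0.332 and 0.493). With the block, 1 listed surface gene was called higher and 1, Csf3r, lower, of 12 tested without LPS. With LPS, it was again 1 higher and 1 lower, of 11 tested. The shares of all genes called with the block were 20.2% and 10.1%.

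The summed level of the 14 neutrophil surface genes, which is dominated by Cxcr4 and Il1r2, ranged from 261 to 332 CPM in unstimulated CD18fl/fl and from 285 to 427 CPM in unstimulated cKO BMDCs, and from 267 to 930 and from 285 to 1677 CPM after LPS. The 9 eosinophil genes summed to 96.5, 43.0 and 2.89 CPM in replicates 1, 2 and 3 of unstimulated CD18fl/fl and to 140, 138 and 28.1 CPM in unstimulated cKO BMDCs. Most of these sums came from Ear2 and Siglecf. Their means over the 12 libraries were 26.7 and 8.44 CPM, ahead of Prg2 (3.33 CPM) and Il5ra (1.88 CPM). Ear2 reached 115 CPM in unstimulated cKO replicate 2, and Prg2 reached 11.3 CPM in unstimulated cKO replicate 1. Epx, the eosinophil peroxidase, in contrast had 0 reads in 10 of 12 libraries, with 8 and 5 in the others. The lymphoid and erythroid genes summed to 3.31 CPM in CD18fl/fl and 16.0 CPM in cKO BMDCs in replicate 3 without LPS, against 47.3 to 205 CPM in replicates 1 and 2, but Hbb-bt, a hemoglobin gene, was highest in replicate 3 of both groups (35 and 393 reads). The basophil and mast cell genes summed to 86.7 and 169 CPM in replicate 3 and to 37.4 to 52.1 CPM in replicates 1 and 2, whereas Kit, a growth factor receptor on this list, was lowest in replicate 3 (1.98 and 0.578 CPM). The 14 dendritic cell genes summed to between 13610 and 34430 CPM, a sum dominated by H2-Ab1, H2-Aa and Cd74. The part of these cell types in the values of the granule genes was not tested.

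Transcription factors of granulocyte development were mostly highest in other libraries. Spi1 (PU.1, mean 162 CPM), Cebpb (50.7 CPM), Cebpa (28.4 CPM) and Runx1 (20.6 CPM) were the most abundant of the 8 listed, and 1 of the 8 had its highest CPM in unstimulated CD18fl/fl replicate 1. Cebpe, the factor required for specific granules, had 362, 52 and 249 reads in unstimulated CD18fl/fl and 206, 229 and 589 reads in unstimulated cKO BMDCs, so that it was highest in a library in which Ngp had 38 reads. With LPS, Cebpe had 12, 10 and 177 reads in CD18fl/fl and 26, 66 and 263 reads in cKO BMDCs. Gfi1, a repressor active in granulocyte precursors, had 11, 1 and 65 reads in unstimulated CD18fl/fl and 184, 157 and 203 reads after LPS, and 0, 0 and 34 against 8, 21 and 240 reads in cKO BMDCs. Between the genotypes without LPS, 0 of 7 factors were called by edgeR, and 4 of 7 fell in cKO BMDCs with the block (Cebpa, Cebpb, Cebpd and Runx1), beside 8.16% of all genes called lower. Cebpd was named after its values were seen. In CD18fl/fl BMDCs, Cebpa fell with LPS (-2.08, SE 0.32, adjusted p = 0.0224), the only call among 7 factors, beside 3.89% of all genes. In cKO BMDCs, Cebpa was at 26.05, 34.8 and 31.9 CPM without and at 4.70, 14.4 and 6.54 CPM with LPS. There 0 of 7 factors were called by edgeR, beside 3.99% of all genes. With the block, 2 factors were lower in CD18fl/fl, and 2 were higher and 3 lower in cKO BMDCs, beside 12.8% and 20.2% of all genes.

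The genes with the most similar profiles were determined from the mean absolute difference of centered log2 CPM over the 12 libraries. Of the granule genes, Camp was among the 3 nearest genes of S100a8 (difference 0.621), and S100a8 was the nearest to Camp. The nearest to Ngp were Ltf (1.10) and Retnlg (1.11), and Cxcr2 was the second nearest to Retnlg (0.633) after Nptx2 (0.595). For Lcn2, the nearest were H2-Q10 (0.761), an MHC class I-like gene, Cp (ceruloplasmin, 0.858) and Perm1 (0.873), and none of the granule genes was among the 3 nearest. The nearest genes were Cstdc5 (0.467) for S100a8, 2610528A11Rik (0.787) for S100a9, Sned1 (0.916) for Ltf and Thap12 (0.506) for Chil3, none of them a granule gene. These measures describe the 12 libraries, which share the replicate pattern given above.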

How the data were processed

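MHCII+ BMDCs were profiled in 12 libraries, 3 in each of 4 groups taken from the library labels. According to the methods and labels, poly(A) libraries were sequenced single-end and mapped in CLC Genomics Workbench with default settings. The methods name GRCm39, whereas the submitters' processing notes name GRCm 38. Gene positions in the files were compared with GENCODE vM39 on GRCm39, in which 70.7% of 41182 matched genes had the same start or end. The authors deposited raw counts of total and unique gene reads for each gene, with no normalization, and between 95.1% and 96.2% of reads were unique. TPM values were deposited as computed by the authors' software and were used to compare levels between genes only.

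R 4.3.3 and edgeR 4.0.16 were used to test total gene reads. After a filter on low counts (minimum count 10), the remaining genes were fitted after TMM normalization by the quasi-likelihood test on the 6 libraries of a comparison, with Benjamini-Hochberg adjustment over all genes and a threshold of 0.05. The interaction was fitted on 12 libraries. The standard error is the log2 fold change divided by the square root of F. CPM values were scaled by TMM over 12 libraries, and log2 CPM used a prior count of 2. Replicate numbers come from the labels, and the sources used here do not state what a number shares. Same-numbered libraries deviated together from their group means (correlations from 0.265 to 0.716 in every pair). The replicate number was therefore treated as a pairing, and a fit with the replicate block is given where it changes a call. Correlations of replicate 3 with replicates 1 and 2 of the other group were negative, with means from -0.512 to -0.373. Because replicate 3 stood apart in each group, such a pattern can arise without a pairing of replicates 1 and 2. That these were paired was not shown, and calls made with the block depend on it.

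The alternatives were the replicate block alone and with a gene length offset (lowess, span 0.3), DESeq2 1.42.0, RLE size factors, library size scaling, no filter on low counts, unique gene reads, replicates 1 and 2 alone, all 12 libraries, and each library left out. The procedure was tested on counts simulated with a single dispersion and no replicate effect. Libraries in which replicate 3 stands apart were not simulated. The granule genes, the lists of other genes and the tests were chosen with earlier results of these data known. Beyond the 10 genes and Itgb2, genes are named as the 4 most abundant of each list, as Ly6g, Csf3r, Cxcr2, Epx, Prg2, Cebpe and Gfi1, as the 3 nearest profiles of each granule gene, or, where stated, after their values were seen. Scripts used Python 3.11.15, pandas 2.3.3 and matplotlib 3.10.9.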

Additional observations from a re-analysis of the deposited data

How the results depend on the processing

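Lcn2 kept its direction under every alternative in all 5 comparisons. With the replicate block, the granule genes called were 1 (unstimulated genotypes), 1 (LPS in CD18fl/fl) and 2 (LPS in cKO), and all genes called were 2606, 1262, 1627 and 2560 in the 4 pairwise comparisons, in the order unstimulated genotypes, LPS-treated genotypes, LPS in CD18fl/fl and LPS in cKO, against 0, 0, 496 and 506 without it. Besides the calls given with the results, the block turned Chil3 between the unstimulated genotypes (0.10) and Camp between the LPS-treated genotypes (-0.07), neither past the threshold. With the block and the length offset, the granule genes called were 1, 3, 3 and 2 and all genes 3065, 1527, 2018 and 3137. S100a9 (-1.02), Lcn2 (-1.36) and Chil3 (0.80) then passed between the LPS-treated genotypes, and Chil3 (0.16) and Camp (-0.36) turned as with the block alone. This offset raised the median of all genes to between 0.22 and 0.37 and the higher share of calls to 97.2%, 94%, 72% and 72.6%. DESeq2 called 1, 0, 4 and 2 granule genes (in LPS-treated cKO also Ngp, -3.83) and 866, 313, 1976 and 1681 genes, and 1 gene in the interaction. Replicates 1 and 2 alone called 0, 1, 7 and 4 granule genes and 1383, 523, 6140 and 2049 genes. Among the 7 and the 4 were genes that passed the filter through the unstimulated libraries. S100a8 rose in LPS-treated cKO against CD18fl/fl (1.19), and Chil3 turned in cKO with LPS (-0.04). All 12 libraries called 19, 45, 1068 and 983 genes. Without the filter, 1 gene was called between the LPS-treated genotypes, and with LPS in cKO 805 genes and 2 granule genes (Lcn2, and Ngp at -3.80). Library size scaling turned Camp between the LPS-treated genotypes (-0.21) and Chil3 with LPS in cKO (-0.18). Under this scaling the median over all genes was -0.44, -0.37, -0.32 and -0.23, and 143 genes were called higher and 304 lower with LPS in CD18fl/fl (263 and 233 with TMM) and 186 and 300 in cKO (283 and 223).

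Leaving out 1 library gave ranges between the unstimulated genotypes of -1.99 to 1.41 for S100a8, -2.64 to 0.93 for S100a9, -4.03 to 0.09 for Ltf, -2.68 to 2.15 for Camp, -3.93 to 0.15 for Ngp and -1.11 to 1.68 for Chil3, positive only without CD18fl/fl replicate 1. Between the LPS-treated genotypes they were -1.75 to 0.23 for Ngp, -0.38 to 1.71 for Chil3 and -0.34 to 0.47 for Camp. With LPS, they were -4.03 to 0.46 for Camp and -2.28 to 1.22 for Chil3 in CD18fl/fl, and -0.81 to 0.50 for Chil3 in cKO. In the interaction they were -0.42 to 2.99 for S100a8, -1.68 to 2.03 for S100a9, -2.65 to 4.20 for Ltf, -2.09 to 2.90 for Camp, -1.08 to 3.28 for Ngp, -1.28 to 2.26 for Chil3 and -3.98 to 2.33 for Retnlg. Granule genes called ranged from 0 to 1 with LPS in CD18fl/fl and from 0 to 2 in cKO, and all genes called from 0 to 1 between the LPS-treated genotypes, from 0 to 3268 with LPS in CD18fl/fl (3268 without LPS-treated replicate 3) and from 0 to 1033 in cKO (1033 without LPS-treated replicate 3). The causes of these changes were not tested. With 3 libraries in a group and replicate 3 apart, many fold changes had errors near their size, and Mpo, at a few reads, could not be compared between 3 libraries and 3.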
